A study of Mus musculus with 3 samples.

Results

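The 300 genomic stretches of 10 kb that held the most open chromatin in old blood-forming stem cells, here called members, lay mostly at gene starts. Among the few gene lists examined, early response genes had the largest share with a start site in a member. Of 23 early response genes, 11 had their start site in a member, and so did 349 of 20807 protein-coding genes on chromosomes 1 to 19, or 1.68%. Most of the other lists also had a share above 1.68%. The lists were put together with earlier results of these data known, so their shares are a description and not independent evidence. The cells were long-term hematopoietic stem cells (LT-HSCs), which sustain all blood lineages for life. They were sorted as the CD34-, CD48- and CD150+ cells among those Lin-, c-Kit+ and Sca-1+, after c-Kit enrichment of marrow taken from wild-type C57BL/6 females (C57BL/6J in the study's methods) of 24 months, and the labels used here do not give how many mice were pooled. DOGMA-seq measured open chromatin (ATAC), RNA and antibody tags together in each cell. Since 1 pool gave all 3 libraries, there was 1 sample and no replicate spread, and no test was run. Intervals are exact 95% binomial or conditional binomial intervals, or Poisson intervals for a single count, and cover counting error only.

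The members were chosen by their fragment totals. Chromosomes 1 to 19 of mm10 were cut into 246104 tiles of 10 kb, each fragment was placed by its midpoint, and fragments were summed over the 3629 cells with at least 10 tags from the 12 antibodies. The tile chr17:39840001-39850000 was left out by name, and so was any tile in which 1 part of 500 bp held over 50% of the fragments. The 300 members are 0.122% of all tiles and held 1376774 of 37751832 autosomal fragments, or 3.65%. A member held 3627 to 20454 fragments with a median of 4282, against a mean of 153 and a median of 26 over all tiles. The 3 tiles just inside the limit were those of Hmgn2 with 3633 fragments, Smarcd2 with 3628 and Msl2 with 3627. The 3 just outside held 3626 at Map3k14, 3621 at Cox20 and 3619 at Cdkn1b, so the limit falls in a continuous series of tiles.

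As background, the transposase of ATAC cuts DNA that is not wrapped in nucleosomes, which in most cells means active promoters and enhancers. Genes of the early response class, among them the Fos, Jun and Egr families, encode short-lived transcription factors and feedback regulators that are switched on within minutes of a stimulus from promoters that are often already open.

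The label of the cells was checked on the tiles that hold the start sites of marker genes. A start site is the outermost start of the annotated gene, so starts of its other transcripts were not counted. The fragments of a tile can also come from other genes in it, so these totals are not levels of single genes. Tiles of 8 stem cell markers held 98 fragments at Mecom to 2868 at Gata2, with a median of 1170. The median was 834 over 5 megakaryocyte genes, 877 over 8 myeloid genes, 731 over 6 T cell genes, 529 over 5 B cell genes and 355 over 5 erythroid genes. For 3 liver and neuron genes it was 320, and Alb held 27. The stem cell median was the highest of these, but tiles of single genes in other lists lay above it. Among them were the tiles of erythroid Klf1 (3399, above the tile of every stem cell marker), Gp1bb of the megakaryocyte list (2069) and Cd3g of the T cell list (1603). No start site of any of these 40 markers lay in a member. Kept cells had 3853 to 45069 nuclear fragments with a median of 10287.

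The sequences below are the densest 300 bp of 5 members, read from the plus strand of the reference genome at mm10 coordinates. They show the tile with the most fragments among those not marked by stacked fragments (Mnt), the tile over a gene body with the highest ratio of measured to expected variance over cells (Fosb), the 2 tiles with the highest ratio between CD274-high and CD274-low cells (Socs3 and Zfp36) and the tile with the lowest (Adgrg3). Capitals mark matches on either strand to core letters of known sites. GGAAG belongs to ETS factor sites and TGTGGT to RUNX sites. The core searched for GATA factors was AGATAA, and for AP-1 it was TGANTCA. The promoter elements searched were the GC box (CCGCCC), the CCAAT box and the cyclic AMP response element or CRE (TGACGTCA). Letters shared by neighbouring matches are capitalised once.

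Mnt, chr11:74832134-74832433, in an intron, centred 1364 bp downstream of the start site: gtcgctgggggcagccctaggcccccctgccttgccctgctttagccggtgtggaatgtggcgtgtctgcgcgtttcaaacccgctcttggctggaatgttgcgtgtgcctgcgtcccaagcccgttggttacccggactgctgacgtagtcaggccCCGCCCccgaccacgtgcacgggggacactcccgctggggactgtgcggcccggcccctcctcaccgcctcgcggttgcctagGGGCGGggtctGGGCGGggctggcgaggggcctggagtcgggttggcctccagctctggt

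Fosb, chr7:19300868-19301167, outside coding genes, centred 9033 bp downstream of the start site: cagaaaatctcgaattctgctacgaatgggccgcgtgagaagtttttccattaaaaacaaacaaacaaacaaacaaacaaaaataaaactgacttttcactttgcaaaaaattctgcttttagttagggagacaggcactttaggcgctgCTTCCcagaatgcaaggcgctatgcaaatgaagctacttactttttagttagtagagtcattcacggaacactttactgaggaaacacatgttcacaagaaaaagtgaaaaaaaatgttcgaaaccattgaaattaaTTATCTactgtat

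Socs3, chr11:117969216-117969515, partly exonic (77 bases), centred 681 bp downstream of the start site: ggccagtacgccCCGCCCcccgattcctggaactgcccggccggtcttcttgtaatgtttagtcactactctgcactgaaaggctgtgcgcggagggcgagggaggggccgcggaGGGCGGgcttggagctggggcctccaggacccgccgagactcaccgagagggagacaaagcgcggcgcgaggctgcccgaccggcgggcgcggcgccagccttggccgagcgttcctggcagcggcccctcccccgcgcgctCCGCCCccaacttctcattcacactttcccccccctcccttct

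Zfp36, chr7:28381073-28381372, outside coding genes, centred 970 bp upstream of the start site: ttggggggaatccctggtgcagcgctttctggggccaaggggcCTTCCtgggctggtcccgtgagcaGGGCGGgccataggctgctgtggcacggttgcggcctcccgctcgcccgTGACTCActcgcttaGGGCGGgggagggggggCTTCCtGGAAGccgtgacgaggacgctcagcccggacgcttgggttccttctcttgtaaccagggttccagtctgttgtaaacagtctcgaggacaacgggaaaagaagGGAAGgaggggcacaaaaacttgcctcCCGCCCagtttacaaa

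Adgrg3, chr8:95012597-95012896, within Adgrg1 and partly exonic (40 bases), centred 4945 bp upstream of the Adgrg3 start site: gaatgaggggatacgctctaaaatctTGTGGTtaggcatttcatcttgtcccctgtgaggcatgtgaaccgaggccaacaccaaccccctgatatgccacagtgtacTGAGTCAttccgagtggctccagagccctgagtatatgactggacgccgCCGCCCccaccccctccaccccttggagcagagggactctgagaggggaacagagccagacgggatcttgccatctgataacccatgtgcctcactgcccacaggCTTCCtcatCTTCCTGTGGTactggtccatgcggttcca

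These windows differ in base composition. GC was 70.3% at Mnt, 70.7% at Socs3, 63.0% at Zfp36, 56.7% at Adgrg3 and 35.3% at Fosb, and CpG numbered 25, 31, 18, 8 and 8. The Fosb window had the lowest GC and carries a GATA core, the Zfp36 and Adgrg3 windows each carry an AP-1 match, and the Adgrg3 window carries 2 RUNX cores. A match is a description of letters and does not show that a factor was bound.

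The single tile with the most fragments was not a gene promoter of known function. At chr2:98660001-98670000, which holds the predicted genes Gm10800 and Gm10801, 20454 fragments were counted, 58.0% of bases were masked as repeats and each fragment was backed by 3.58 read pairs, the lowest of all members. In 44.3% of cells at least 3 fragments overlapped at 1 base, whereas a cell with 2 copies of a locus can give at most 2. The tile chr9:124420001-124430000, inside Ppp2r3d, held 10676 fragments and such stacks in 3.20% of cells. In all other members such stacks were seen in at most 2.56% of cells. Both tiles hold 2.26% of the members' fragments and were kept because the rule keeps them.

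The other 8 of the first 10 members lay at known genes. Mnt, a repressor that pairs with MAX and opposes MYC, held 10779 fragments at chr11:74830001-74840000. Sin3a, the scaffold of a histone deacetylase complex, held 8299, and the tile shared by Cars2 and the chromatin reader Ing1 held 8252. The start of Neat1, the noncoding RNA that builds paraspeckles, gave 7718. Per1, a repressor of the circadian clock, held 7548. Crlf2, a subunit of the receptor for the cytokine TSLP, held 7528. The tile of Cbarp and Midn held 7520, and that of Cep95 and the RNA helicase gene Ddx5 held 6898. Further members by place were Zfpm1 (6820), the tile of the kinase regulator Inka1 (6716), Plekhg2 (6671), whose tile also overlaps Zfp36, Dbp (6575), an output gene of the clock, and Klf13 (6564).

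Gene starts were dense in the members. A start site of any annotated gene lay in 278 of 300 members (92.7%), against 88.3% of the 1000 tiles that follow them in fragments, 42.6% of the 38874 tiles with at least 200 fragments, and 16.9% of all tiles. For protein-coding genes alone the numbers were 260 members (86.7%), 81.6%, 32.1% and 7.56%. At least 2 coding starts lay in 77 members, or 25.7%, against 22.3% of the next 1000 tiles and 4.63% of the tiles with at least 200 fragments. The highest number was 4, as in the tile that holds Hist1h1a, Hist1h3a, Hist1h4a and Trim38. Members thus exceeded the next 1000 tiles by a few percentage points only.

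A start site was missing from 22 members. Only the outermost start of each annotated gene was counted, so these members can hold starts of other transcripts. The 5 of these with the most fragments were the Ppp2r3d tile, the body of Egr1 (6824), the tile overlapping Pnrc1 (5484), the tile inside Kat6b (4969) and that of Socs3 (4691). The annotated start of Socs3, at base 117970047 of chromosome 11, lies just past the end of its tile. The tiles chr6:51170001-51180000 with 4446 fragments and chr6:31210001-31220000 with 4414 held neither a start site nor a coding gene. In 18 members the starts were those of noncoding genes, among them Neat1, Malat1 (3996 fragments) and, in chr8:84200001-84210000, the Mir23a, Mir27a and Mir24-2 cluster (4372).

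Early response genes were the group with the largest share in the members among the 7 lists examined. Their 11 member tiles were those of Jund (5662 fragments), Fosl2 (4718), Jun (4701), Junb (4611), Zfp36 (4453), Klf6 (4382), Ier2 (4230), Ier3 (4118), Fos (3930), Myc (3737) and Egr1 (3705). Jun, Junb, Jund, Fos and Fosl2 encode parts of AP-1, Zfp36 encodes a protein that destroys cytokine mRNAs, and Klf6 and Egr1 encode zinc finger activators. Another 7 of the 23 lay in the next 1000 tiles, Mcl1 with 3410 fragments and Klf4 with 3298 leading them. Some members lay over bodies of listed genes whose start tile was no member. The start tile of Fosb held 3274 fragments, of Dusp1 929 and of Socs3 740, and the members over their bodies held 5306, 5976 and 4691. The starts of Fosb (base 19310051) and Socs3 (base 117970047) lie just past the end of those members. The lowest start tile was that of Atf3, at 119. Only the outermost annotated start of a gene was used. A member over a body can therefore hold another start of that gene, and a low start tile does not show that the gene's promoters were closed. Bodies and such other starts are not counted in the shares of any list.

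Genes that mark the stem cell state had a lower share in the members than early response genes, beside 1.68% of all coding genes. Of 25 stem cell identity genes, 2 (8.0%) had their start in a member: Zfp36l2 with 6536 fragments, an mRNA decay factor that restrains early response transcripts, and Lyl1 with 5959, a bHLH factor of blood stem cells. A further 5 lay in the next 1000 tiles, Gata2 (2868) and Tal1 (2639) being the highest, and the median of the list was 1405. Of 15 platelet genes, 1 (6.67%) was in a member, Zfpm1, which encodes the GATA cofactor FOG1, and the median was 962. None of 21 autosomal genes of the study's panels and antigens was in a member. Cd68 (2885 fragments), Sox4 (2587) and Crip2 (2363) came closest, while Cd27 held 1264 and Cd274 1261.

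Start sites of 3 of 80 ribosomal protein genes (3.75%), 3 of 67 genes of the histone clusters (4.48%) and 1 of 7 adhesion and cytoskeleton genes lay in members. The tile of Rpl41 held 4526 fragments and that of Actb 4258. The lists were put together with earlier results of these data known, so these shares describe the members and are not independent evidence.

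Members were spread unevenly over the genome. Chromosome 11 had 40 of them, 0.328% of its tiles, followed by chromosome 17 with 0.242% and chromosome 7 with 0.220%, and chromosome 3 was lowest with 7, or 0.0438%. They formed 294 separate stretches, since 12 members adjoined another in 6 pairs and no run of 3 was found. The pairs were Plekhg2 with Zfp36, Egr1 with its body, Jund with Iqcn, Sertad3 with Sertad1, Ccdc9 with the tile after it, and the Mir23a tile with the tile before it. Zfp36, Egr1 and Jund are early response genes.

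**Figure D1:**
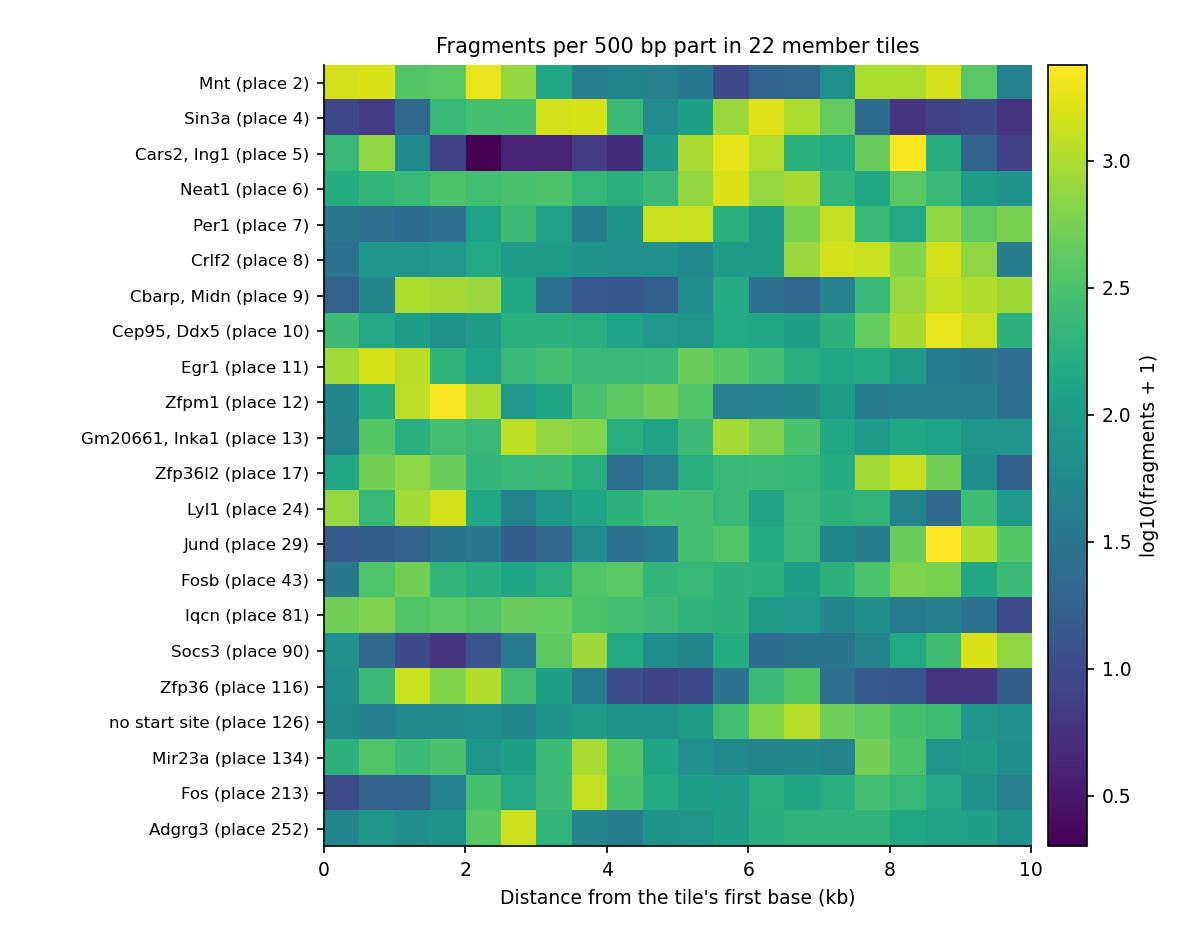
Each row is 1 of 22 members and each cell 1 part of 500 bp, coloured by log10(fragments + 1) and laid out by distance from the first base of the tile in kb. Jund is brightest at 8.5 to 9.5 kb, with a weaker stretch of 153 to 349 fragments per part just after 5 kb and 14 to 60 before 5 kb. Neat1 and the Mir23a tile are filled from end to end and Fosb is filled but for its first part.

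Within a member, opening was concentrated but had wide shoulders. A part was called dense if it held at least 5 times the autosomal mean of 7.67 fragments per 500 bp. Members had 3 to 20 dense parts of 20 with a median of 9, against 8 in the next 1000 tiles and 3 in all tiles with at least 200 fragments. The longest unbroken run of dense parts had a median of 7 parts against 5 and 2. The limit for a dense part is a fixed count, so dense parts and runs follow the tile total by which members were chosen. The order of the sets is therefore not read as a difference in shape. In members, 2 parts (median) were enough for 50% of the fragments, and the fullest part held 11.5% to 49.9% with a median of 35.4%. Tiles with a part over 50% were left out, which sets the floor of 2 parts and caps the fullest part. In 6 members every one of the 20 parts was dense: Neat1, Ddx5, Inka1, Adgrg3, the Mir23a tile and the intergenic tile on chromosome 6 at 31210001. At least 15 dense parts were counted in 38 members.

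**Figure D2:**
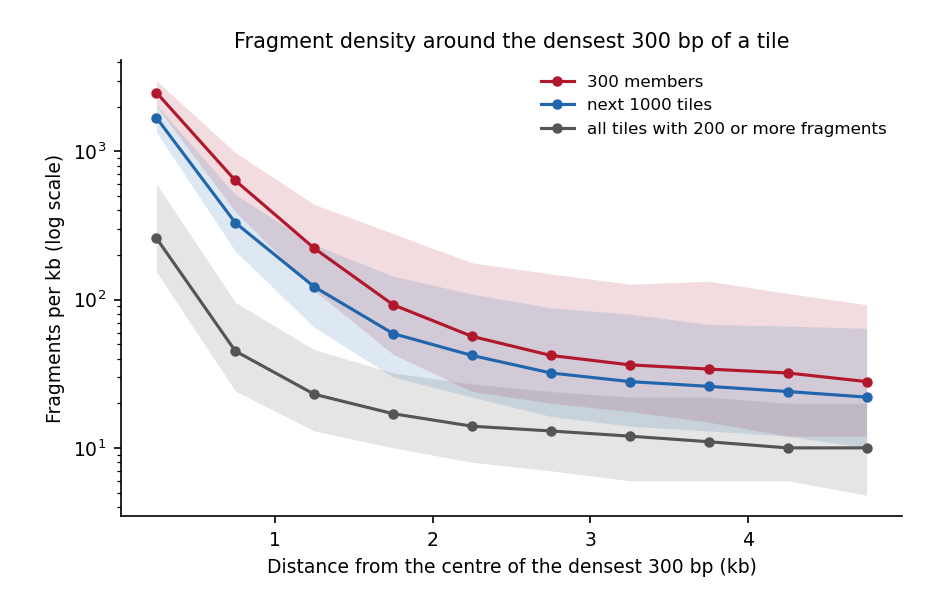
Median fragments per kb (points, log axis) and the middle 50% of tiles (shading) are drawn against distance in kb from the centre of the densest 300 bp, for members, the next 1000 tiles and all tiles with at least 200 fragments. Members fall from 2493 fragments per kb within 0.5 kb to 28 at 4.5 to 5 kb, where the next 1000 tiles have 22 and all tiles 10.0.

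The shoulder was where members and the following tiles differed most in proportion. Between 0.5 and 1 kb from the centre of the densest 300 bp, members had 636 fragments per kb (middle 50%: 392 to 982) and the next 1000 tiles 330 (212 to 511). Between 1 and 1.5 kb the medians were 222 and 122. Beyond 3 kb both were below 40 fragments per kb. The middle 50% of the 2 sets overlapped at every distance. The rule sets a higher total for members, and in both sets it caps the fullest part at 50% of the fragments. The shape along the tile is therefore not independent of the rule, and the comparison is a description. The densest 300 bp held 28% of a member's fragments and 32.6% in the next 1000 tiles.

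Sequence composition set the members apart from open chromatin in general and little from the tiles just below them. Over the whole tile, members had a median GC of 50.1% and 25.5 CpG per kb, against 49.0% and 22.7 in the next 1000 and 46.3% and 13 in all tiles with at least 200 fragments. In the densest 300 bp, the medians were 65.7% GC and 26 CpG in members, 66.3% and 27 in the next 1000, and 53.3% and 7 in all tiles. The GC-box core CCGCCC was found in 85.0% of members, 79.1% of the next 1000 and 32.8% of all tiles. CCAAT was found in 56.0%, 41.1% and 30.8%, and the CRE TGACGTCA in 6.33%, 6.40% and 1.64%. The RUNX, GATA and AP-1 cores went the other way: TGTGGT was in 8.33% of members, 10.4% of the next 1000 and 23.7% of all tiles, AGATAA in 4.0%, 3.9% and 10.7%, and TGANTCA in 3.33%, 4.30% and 10.7%. The ETS core GGAAG was frequent everywhere, at 70.0%, 72.0% and 75.6%. Only CCAAT and CCGCCC differed by over 5 percentage points between members and the next 1000 tiles, and neither difference was tested. The densest 300 bp of all tiles were lower in GC and CpG, and the shares were not adjusted for base composition. Enrichment or depletion of a core is therefore not read from them.

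Fragments in members were short. Up to 120 bp, a length that fits between nucleosomes, were 41.7% of a member's fragments in the median, against 36.9% in the next 1000 tiles and 26.7% in all tiles with at least 200 fragments. Lengths of 180 to 250 bp, which span 1 nucleosome, were 13.6%, 15.2% and 17.7%. Read pairs per fragment were 6.74, 6.56 and 6.13, so members were read at least as deeply as other tiles. Within 1 kb of a coding start lay 71.2% of a member's fragments and 72.1% in the next 1000 tiles.

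Broad and narrow members differed from each other in several measures that the rule did not use. The 75 members with 3 to 6 dense parts had a median of 45.7% short fragments and 90.7% of fragments within 1 kb of a coding start. In the 66 members with 13 to 20 dense parts these medians were 38.0% and 46.8%, and the 159 between them lay between, at 40.9% and 71.0%. CpG per kb went from 22.5 over 26.6 to 29.1. Across the 300 members the rank correlation of the number of dense parts was -0.49 with the share of short fragments and -0.53 with the share near a coding start. The window of 1 kb around a start covers only some parts of a tile, so the share near a start falls in part by construction as dense parts increase. All these values are descriptions over tiles of 1 library, and the number of dense parts also followed the fragment total (0.25).

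At the depth measured, most cells had at least 1 fragment in a typical member. A cell without a fragment is not read as closed there. The share of cells with at least 1 fragment ran from 58.0% to 96.8% with a median of 64.9%, against 49.9% in the next 1000 tiles and 11.3% in all tiles with at least 200 fragments. The rule fixes most of this order, since fragment totals alone gave expected shares of 67.2%, 52.2% and 12.2%. At Mnt it was 91.9% (90.9 to 92.7), at Sin3a 87.3% (86.2 to 88.4) and at Zfpm1 82.2% (80.9 to 83.5). A cell had a fragment in 102 to 295 of the 300 members, with a median of 202. The share depends on depth: with each cell thinned to 6000 fragments, which left out 244 cells, the median was 47.3% and the range 41.2% to 92.9%. The order of the members was nearly the same (rank correlation 0.98).

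The expected share is that of cells drawing from 1 common rate in proportion to their depth. The measured share lay under its expectation in 296 of 300 members, by 1.89 percentage points in the median. The variance over cells divided by the expected variance was 1.07 to 1.76 with a median of 1.17, the same median as in the next 1000 tiles. It was 1.16 in all tiles with at least 200 fragments. The excess variance as a squared coefficient of variation had a median of 0.125 in members, 0.192 in the next 1000 tiles and 0.993 in all tiles with at least 200 fragments, whose median totals were 4282, 2786 and 475 fragments. It was thus lower where totals were higher, and no difference in variation between the sets is read from it.

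The members with the highest variance ratio were, after the Gm10800 tile at 1.76, the body of Fosb (1.52), the tile at the 3′ end of Jund that holds the Iqcn start (1.49), the body of Egr1 (1.45) and Fos (1.36). The last 4 lie at early response genes. By excess variance the order was different: the Jund and Iqcn tile (0.339), Fosb (0.322) and Fos (0.299) led, Egr1 had 0.216, and the Gm10800 tile, with 0.121, lay under the median. At the Fosb body 68.0% of cells had a fragment (66.4 to 69.5) where 74.4% were expected, and at the Jund and Iqcn tile 64.8% (63.2 to 66.4) where 70.9% were expected. Both tiles had few short fragments, 22.8% and 27.3%, and 19 and 17 dense parts. The 5 members with the lowest variance ratio were Agbl5, Naif1 with Slc25a25, Sec16a, Cep57 with Fam76b, and Dcaf6 with Mpc2, at 1.07 to 1.08. At Sec16a, which acts in vesicle export from the endoplasmic reticulum, 70.6% of cells had a fragment (69.1 to 72.0) and 70.1% were expected.

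**Figure D3:**
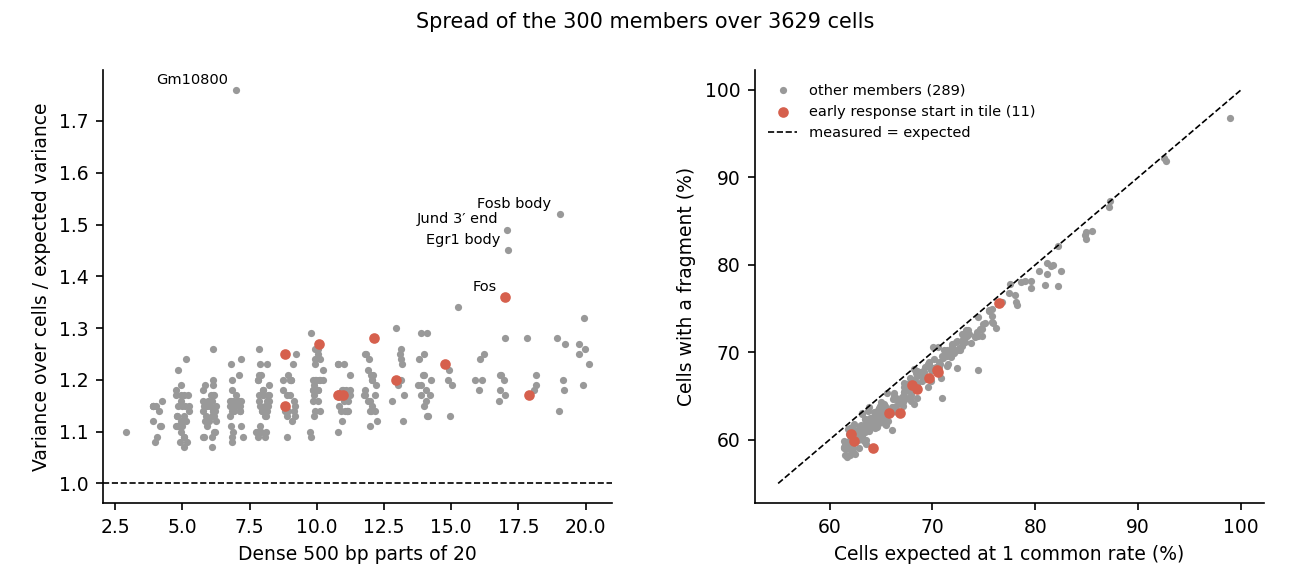
Left: variance over the 3629 cells divided by the variance expected from depth, against the number of dense parts (points shifted sideways at random to separate them), 1 point per member. Right: measured against expected percent of cells with a fragment. All members lie above 1 on the left and nearly all lie just under the dashed line of equality on the right. Red points are the 11 tiles with an early response start.

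Breadth and variation went together. The median ratio of variance was 1.14 in members with 3 to 6 dense parts, 1.17 with 7 to 12 and 1.20 with 13 to 20, and the rank correlation across members was 0.54, against 0.35 for excess variance. The 11 tiles with an early response start had a median of 1.20 and 11 dense parts, and the other 289 members 1.16 and 9. The variance ratio exceeded 1.3 in 7 members, the remaining ones being the tile inside Rarg (1.34) and the gene-free tile on chromosome 6 at 31210001 (1.32).

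The share of a cell's fragments that fell in members was 1.26% to 5.53% with a median of 3.62%, and 5% of cells lay under 3.02% and 5% over 4.40%. Across cells this share had a rank correlation of -0.61 with the log of nuclear fragments, 0.62 with the share in peak regions and 0.79 with the share near start sites, and 0.050 with summed tags. The share of fragments in members thus moved with depth and with the share in peak regions.

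Levels were then compared between cells with high and low antibody counts, which asks whether these open stretches differ between the stem cell subsets that surface markers define. CD274 is the checkpoint ligand PD-L1, CD61 the platelet integrin beta-3, CD357 the receptor GITR encoded by Tnfrsf18, and CD27 a receptor of the same TNF receptor family. In the study CD61 and CD274 are high and CD357 and CD27 low on platelet-biased (PLT) stem cells, and the reverse on multilineage (MUL) ones. Cells were split as near to the highest and lowest 25% as tied counts allow. For CD274 that gave 937 cells with at least 27 tags and 877 with at most 12, and for CD61 779 cells with at least 6 and 727 with at most 1. The other splits were less even. For CD357 968 cells had at least 5 tags and 1200 at most 1. The low cells had 0 tags for CD27 (825 high and 1578 low), P2X7R (1325 and 2304) and MERTK (564 and 2168). Median depth was 10296 and 10472 nuclear fragments for CD274, and 10472 and 10200 for CD61.

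Summed over members, the groups were close. Members took 3.60% of the fragments (3.59 to 3.61) of CD274-high cells and 3.54% (3.53 to 3.55) of CD274-low cells, a log2 ratio of 0.026 (0.019 to 0.032). High cells also had more of their fragments in peak regions, 68.5% against 66.3% in the median, and scaled by the fragments within 1 kb of start sites the ratio was 0.002. With cells thinned to 6000 fragments it was 0.023, without the deepest 5% of cells 0.020, and in the cells with at least 50 tags 0.050. For summed tags, of which CD274 gave the most, the shares were 3.59% and 3.54% (log2 ratio 0.019, or 0.00028 with start-site scaling). For CD61 they were 3.60% and 3.56%, for CD357 3.58% and 3.57%, for CD27 3.57% and 3.59%, for P2X7R 3.56% and 3.59% and for MERTK 3.60% and 3.57%. Cells high in CD61 and CD274 and low in CD357 and CD27 by medians (342 cells) had 3.63% and the reverse gate (61 cells) 3.63%.

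No single member had a log2 ratio past 0.32 in either direction for any of the 6 antibodies or for summed tags, 0 of 300 in each. In the 363 cells with at least 50 tags, where the groups are smaller, 15 to 38 members passed in each comparison, with 32 for CD274 and 23 for CD61. Over the 38874 tiles with at least 200 fragments the share past that ratio was 18.4% for CD274, 17.2% for CD61, 11.1% for CD357, 9.63% for CD27, 5.34% for P2X7R, 12.4% for MERTK and 16.8% for summed tags. Most of those tiles hold far fewer fragments, so their ratios scatter more. Group sizes also differ between the antibodies, so these shares are not compared between antibodies. In the next 1000 tiles, which are nearer in depth, the numbers past it were 1 for CD274, 3 for CD61, 1 for CD27, 2 for summed tags and 0 for the other 3. Between the 2 gates 35 members passed (11.7%), 21 higher and 14 lower in the PLT gate, against 55.3% of all tiles and 22.6% of the next 1000. With gates drawn on other values the number was 5 for centred log ratios (251 and 252 cells) and 4 for residuals on the other antibodies (208 and 243 cells). With other sets of cells it was 18 without the deepest 5% (256 and 89 cells) and 119 with at least 50 tags (22 and 25 cells). With cells thinned to 6000 fragments it was 32 (246 and 88 cells). Group sizes changed in each of these, so gate drawing, choice of cells and group size cannot be told apart.

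**Figure D4:**
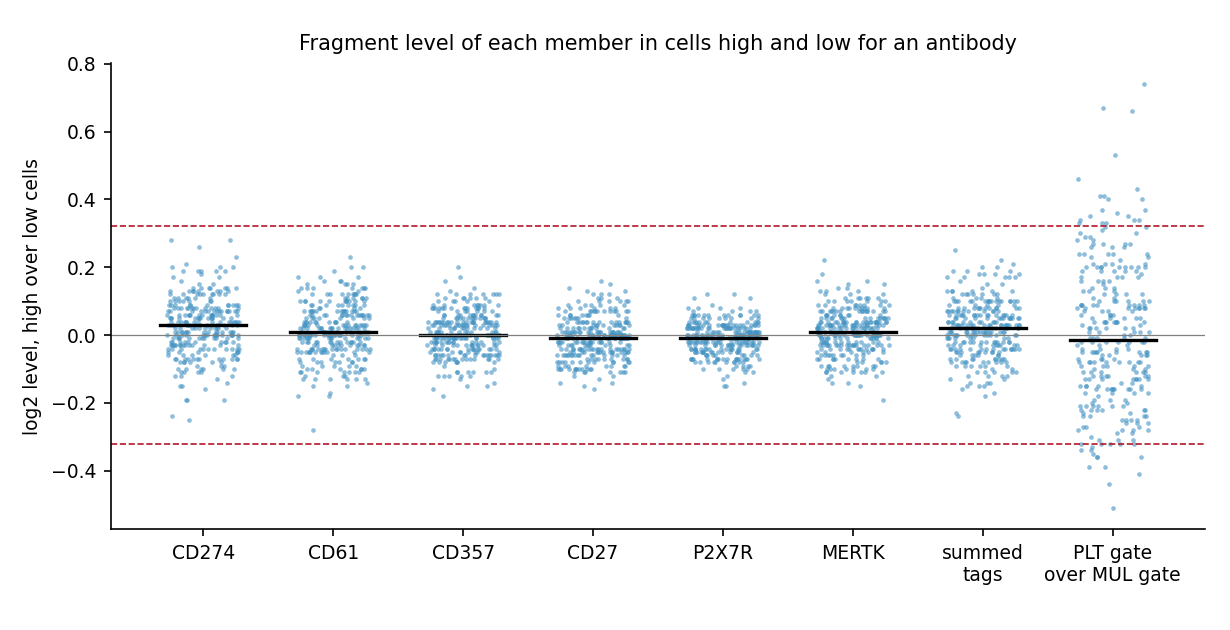
Each point is 1 of the 300 members, placed by the log2 ratio of its fragment level (fragments per nuclear fragment) in high over low cells for the antibody named below, with the median as a black bar and red dashed lines at 0.32 either way. The points lie inside the lines for all 6 antibodies and summed tags, and spread past them for the gates, where 61 cells form the low group.

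Small differences were most frequent by CD274 and nearly as frequent by summed tags, of which CD274 gave the most. For CD274 the interval lay above 0 in 39 members (13%) and below 0 in 13 (4.33%), against 8.02% and 4.27% of all tiles and 103 and 39 of the next 1000. For summed tags it lay above in 32 and below in 16, against 80 and 31 of the next 1000. For CD61 it lay above in 18 (6%) and below in 9 (3%), against 4.54% and 3.55% of all tiles and 4.9% and 3.8% of the next 1000. Counting intervals leave out 0 in 5% of tiles that do not differ, and variance over cells above expectation raises that share. Members have more fragments than most tiles and so narrower intervals. The ratios of members for CD274 ran from -0.25 to 0.28 with a median of 0.029, beside 0.027 over all tiles, and for CD61 from -0.28 to 0.23.

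The members with the highest ratios for CD274 were named because they are extreme, so their values are a description. Levels are given as CPM, fragments per 1000000 nuclear fragments of the group. Socs3, a feedback inhibitor of cytokine signalling through JAK and STAT, had 131 CPM in CD274-high and 108 in CD274-low cells, a log2 ratio of 0.28 (0.16 to 0.39). At Zfp36 the levels were 125 and 103 and the ratio 0.28 (0.16 to 0.40). At Pik3ip1, which restrains PI3 kinase, they were 101 and 84.1 and the ratio 0.26 (0.12 to 0.40). In the 363 cells with at least 50 tags all 3 ratios were below 0 (-0.10, -0.0027 and -0.11). The share of cells with a fragment at Socs3 was 71.2% in the highest step of CD274 and 62.6% in the lowest.

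The lowest ratios for CD274 were found at Adgrg3 with 91.8 and 109 CPM (-0.25, -0.38 to -0.12), at Malat1 with 95.4 and 113 (-0.24, -0.37 to -0.11) and inside Stag1, a cohesin subunit, with 91.3 and 104 (-0.19, -0.32 to -0.06). Adgrg3 and Adgrg1, whose body the dense window lies in, encode adhesion G protein-coupled receptors, and Adgrg1 is a marker of hematopoietic stem cells. In the cells with at least 50 tags the ratio was -0.02 at Adgrg3, -0.06 at Malat1 and -0.12 at Stag1. With centred log ratios it was -0.14, -0.20 and -0.12 at these tiles, and with residuals on the other antibodies -0.16, -0.19 and -0.11. Over 4 steps of CD274 tags (2 to 12, 13 to 19, 20 to 26 and 27 to 110), the Adgrg3 tile had 109, 99.3, 93.6 and 91.8 CPM. Zfp36 had 103, 113, 121 and 125, in the opposite order. Socs3 had 108 (102 to 115), 127 (120 to 134), 120 (112 to 127) and 131 (124 to 138). The interval at 108 overlaps that at 120 but not those at 127 and 131, and the levels do not rise at every step.

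**Figure D5:**
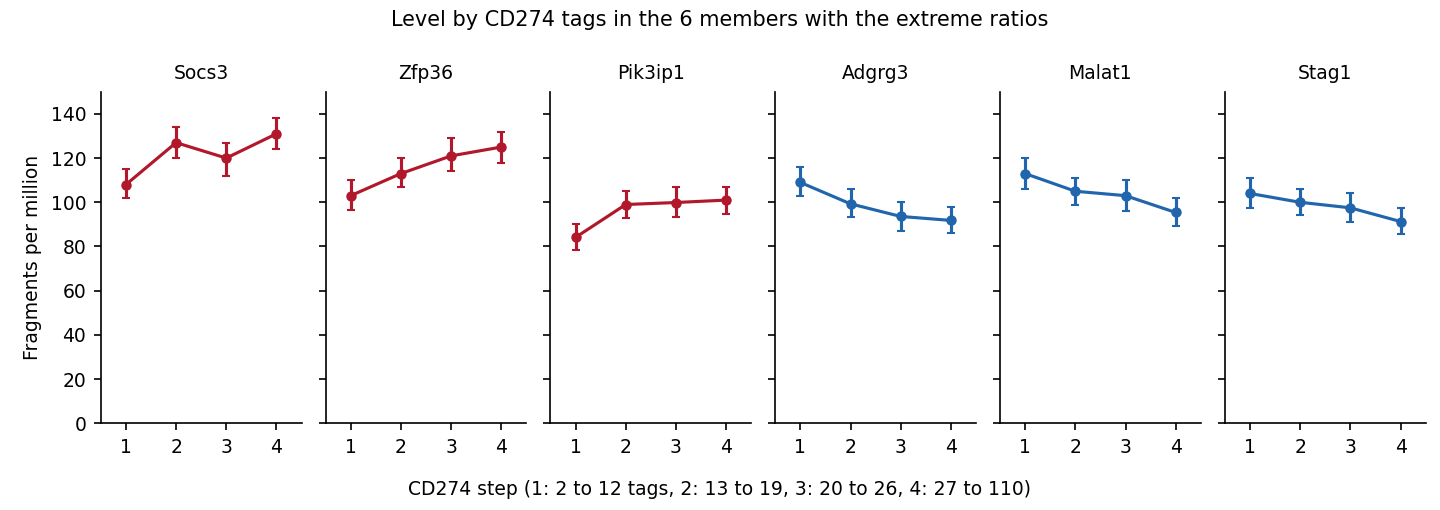
CPM in 4 steps of CD274 tags for the 6 members with the 3 highest (red) and 3 lowest (blue) ratios, with exact 95% Poisson intervals. Zfp36 goes from 103 to 125 and Adgrg3 from 109 to 91.8 in single steps whose neighbouring intervals overlap.

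By CD61, the highest ratios were at Iqcn beside Jund with 134 and 114 CPM (0.23, 0.10 to 0.36), at Fosl2 with 132 and 115 (0.20, 0.07 to 0.33) and at Cuta with Phf1 with 126 and 110 (0.20, 0.07 to 0.33). The lowest were inside Plec, a cytoskeletal linker, with 90.5 and 110 (-0.28, -0.42 to -0.14), at Csnk1g2 with 116 and 131 (-0.18) and at Gpr108 with Trip10 with 107 and 121 (-0.18). In the cells with at least 50 tags the ratio was 0.02 at Plec and -0.02 at Csnk1g2, and with wider groups of high and low cells it was -0.10 at Plec. Over 8 alternative settings the ratio ran from 0.18 to 0.25 at Iqcn, 0.11 to 0.22 at Fosl2 and 0.11 to 0.27 at Cuta with Phf1. At Gpr108 with Trip10 it ran from -0.20 to -0.11. By CD357, Grcc10 (0.20), Sertad1 (0.17) and Hmga1 (0.16) were highest and Chst12 (-0.18), Iqcn (-0.16) and Yy1 (-0.15) lowest. Iqcn, which stood high by CD61, thus stood low by CD357, but the cells of both comparisons overlap. By CD27, the tile overlapping Banp (0.16), Ppp6r3 (0.15) and Polr2a (0.14) were highest and Epb41 (-0.16), Nadk (-0.15) and Arid1a (-0.14) lowest. For CD357 the interval lay above 0 in 13 members (4.33%) and below 0 in 11 (3.67%), against 4.4% and 4.1% of the next 1000 tiles. For CD27 it lay above 0 in 10 (3.33%) and below 0 in 10 (3.33%), against 3.3% and 3.3% of the next 1000. Tiles named for CD357 and CD27 are extremes, and their ratios are a description.

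The 11 tiles with an early response start were also summed. They held 1270 CPM in CD274-high and 1231 in CD274-low cells, a log2 ratio of 0.046 (0.009 to 0.082), and 1271 and 1232 by CD61, or 0.045 (0.005 to 0.085). By summed tags the ratio was 0.048 (0.012 to 0.084). The set includes Zfp36 (125 and 103 CPM by CD274) and Fosl2 (132 and 115 by CD61), both named above because they are extreme. These sums are therefore not separate from those tiles and are a description. The other 289 members had 0.025 by CD274, 0.014 by CD61 and 0.018 by summed tags, and the intervals of both sets overlap. The intervals of the 11 tiles included 0 for CD357 (-0.012), CD27 (0.001), P2X7R (-0.025, -0.052 to 0.001), MERTK (0.021) and the PLT gate over the MUL gate (-0.008, -0.118 to 0.105).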

How the data were processed

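The ATAC and antibody libraries of 1 pool of LT-HSCs were analysed. Per the submitters' processing notes, the authors used Cell Ranger ARC 2.0.2 with mm10, which calls cells, collapses duplicate read pairs and adjusts ends for the transposase offset. Deposited values are raw counts of read pairs per fragment, of fragments per cell, and of antibody tags per cell made with CITE-seq-Count (no version was stated in what was read here). The cell call was deposited as another column of flags.

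The members and lists were chosen with earlier results of these data known. Levels were fragments over all nuclear fragments of the cells, with 0.5 added to each count for log2 ratios. With 1 sample per group a tile was called past a log2 ratio of 0.32. The code was tested on simulated counts. Tiles named were the first 10, 3 each side of the limit, extremes of dense parts, variance and ratios, those with no start site, and those of list genes. Kinases and histone variants that share the prefixes of 2 lists were left out. Genes were from GENCODE M21, and the start site of a gene was the outermost start of its annotated record. GRCm38 sequence had the chromosome lengths of mm10, and no fragment ran past them. Doublets were not removed. The RNA matrix was not analysed here. Python 3.11.15, numpy 2.4.6, scipy 1.17.1, pandas 2.3.3 and matplotlib 3.10.9 were used.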

Additional observations from a re-analysis of the deposited data

Results flagged for a closer look

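Signal outside the comparisons was found in several places. The tile left out by name, chr17:39840001-39850000, held 114279 fragments, more than any member. A further 68 tiles reached the lowest member's total but had over 50% of their fragments in 1 part, and 62 of them held a coding start site, the densest at Hjurp with 7073 fragments. No tile of chromosome X or Y reached the limit: the highest with no part over 50% held 2803 fragments on X and 2903 on Y. The Y tile is chrY:90800001-90810000, and since the mice were female its fragments are not read as specific to Y. Outside the kept cells, members took 4.01% of fragments (3.97 to 4.04) in the 645 called cells without antibody counts and 3.02% (3.00 to 3.04) in barcodes not called as cells, against 3.58% in kept cells.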

How the results depend on the processing

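No paired analysis was possible because the result comes from no test and the labels give no replicate numbers. Of 300 members, 46 were shared with a limit of 25% on 1 part, since 254 members exceed that limit, and 187 when fragments of up to 120 bp alone were counted. Tiles shifted by 5 kb covered 35.2% of the members' length, 5 kb tiles (600 of them) 40.2% and 20 kb tiles (150) 37.7%. A shifted tile can cover only part of a member by construction. The 7 other alternatives kept 254 to 296 members. Members past a log2 ratio of 0.32 with the 363 cells of at least 50 tags were 32 for CD274, 23 for CD61, 38 for CD357, 31 for CD27, 15 for P2X7R, 20 for MERTK, 28 for summed tags and 119 for the gates, where each group has fewer cells. For the gates the number was 5 with centred log ratios, 4 with residuals on the other antibodies and 18 without the deepest 5% of cells, against 35. In those 363 cells the ratios by CD274 turned to -0.11 at Pik3ip1, -0.0027 at Zfp36 and -0.10 at Socs3, and that by CD61 turned to 0.02 at Plec. The summed ratio by CD274 was 0.019 with wider groups of high and low cells, 0.050 with at least 50 tags and 0.002 scaled by fragments near start sites, and that by summed tags 0.00028 with the latter scaling. Without the 2 tiles with stacked fragments, an alternative chosen after seeing the data, both were unmoved at 0.026 and 0.019. The median share of cells was 47.3% with cells thinned to 6000 fragments.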
